A study of Homo sapiens with 12 samples.

Results

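The genes described here are those of the AP-1 transcription factors and their usual companions in the immediate early response, chosen by name: FOS, FOSB, FOSL1, FOSL2, JUN, JUNB, JUND, EGR1, IER2 and DUSP1. Of these 10 genes 9 had a row in the table of 14828 genes and all 9 passed the filter on low values, which left 14624 genes for the tests. FOSL1 had no row in the table used here. They were followed in 22Rv1, a human prostate carcinoma cell line grown in medium with fetal bovine serum, after depletion of CENPA, the histone H3 variant that marks the centromere. All cells carried a doxycycline-inducible lentiviral vector and all received doxycycline at 2 µg/ml for 72 h. The vector encoded a nontargeting shRNA (shNT) in the control cells and 1 of 2 independent CENPA-targeted shRNAs (shCENPA1 or shCENPA2) in the others. Each shRNA was represented by 2 libraries, and each library was sequenced in lanes 7 and 8, whose mean was used as 1 value.

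AP-1 is a dimer of leucine zipper (bZIP) proteins. A Jun protein (JUN, JUNB or JUND) pairs with itself or with a Fos protein (FOS, FOSB, FOSL1 or FOSL2), whereas Fos proteins need a Jun partner to bind DNA. Most of these genes are immediate early genes, which serum, growth factors or stress switch on within minutes, without new protein synthesis, through MAP kinases acting on serum response factor and its partners and through CREB. The mRNAs are short lived, so that cells kept in steady culture hold a basal level that lies well below the peak of a fresh stimulus. EGR1 is a zinc finger transcription factor of the same response, IER2 a small nuclear protein, and DUSP1 a phosphatase that switches off MAP kinases. JUND is the Jun gene that most cells express without a stimulus.

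The labels do not say whether the libraries of an shRNA came from separate cultures, so the p-values below measure only the spread between libraries. With 2 libraries against 2, an exact permutation test cannot go below p = 0.333, and the tests used here come from limma, fitted over all genes with Benjamini-Hochberg adjustment. A gene is called changed at an adjusted p under 0.05. In bulk RNA, fewer cells with a transcript and less transcript per cell cannot be told apart. Depth was 79172294 to 133074655 reads per library. Of 10 luminal prostate markers all 10 had a row, with a summed level of 904 to 983 RPKM per library. None of the 4 basal markers and 3 of 11 stromal, endothelial and leukocyte markers (COL1A1, DCN and LUM) had a row. The summed level of these 3 was 3.68 and 3.95 RPKM in shNT, 3.55 and 3.57 in shCENPA1, and 5.86 and 5.98 in shCENPA2. Whether cells of another type had a part in the changes below was not tested.

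CENPA itself was read first, as the check of the labels. Its level was 2.46 and 2.18 log2 RPKM in the shNT libraries, 0.51 and 0.58 in shCENPA1, and -0.47 and -0.41 in shCENPA2. The change was -70.9% with shCENPA1 (log2 fold change -1.78, adjusted p = 0.000287, limma) and -85.3% with shCENPA2 (log2 fold change -2.76, adjusted p = 1.13e-05, limma), as the labels state.

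The promoters of these genes were searched for elements known from the immediate early response. RefSeq promoters on GRCh38.p14, 250 bases before to 50 bases after the start, were matched for 9 of the 10 genes. A few are printed 5′ to 3′ on the strand of the gene. The promoter of EGR1, with serum response factor elements in this window, is chr5:138465229-138465528 (plus strand). That of FOSB, the gene with the largest decrease, is chr19:45467746-45468045 (plus strand). That of JUNB, the gene that passed the test, is chr19:12791236-12791535 (plus strand). That of DUSP1, with a full cyclic AMP response element, is chr5:172771146-172771445 (minus strand). Capitals mark matches to the motifs searched.
EGR1: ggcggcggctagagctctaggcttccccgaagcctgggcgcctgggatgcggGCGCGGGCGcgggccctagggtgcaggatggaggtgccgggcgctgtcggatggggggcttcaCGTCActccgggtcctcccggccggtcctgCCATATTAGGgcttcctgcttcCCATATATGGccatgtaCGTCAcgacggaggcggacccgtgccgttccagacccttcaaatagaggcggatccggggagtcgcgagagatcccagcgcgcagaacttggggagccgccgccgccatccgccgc
FOSB: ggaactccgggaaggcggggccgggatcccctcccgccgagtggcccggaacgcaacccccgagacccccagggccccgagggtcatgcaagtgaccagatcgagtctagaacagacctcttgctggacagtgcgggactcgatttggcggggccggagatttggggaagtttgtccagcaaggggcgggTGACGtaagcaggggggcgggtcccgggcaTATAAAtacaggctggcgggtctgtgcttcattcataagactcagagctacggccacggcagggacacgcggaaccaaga
JUNB: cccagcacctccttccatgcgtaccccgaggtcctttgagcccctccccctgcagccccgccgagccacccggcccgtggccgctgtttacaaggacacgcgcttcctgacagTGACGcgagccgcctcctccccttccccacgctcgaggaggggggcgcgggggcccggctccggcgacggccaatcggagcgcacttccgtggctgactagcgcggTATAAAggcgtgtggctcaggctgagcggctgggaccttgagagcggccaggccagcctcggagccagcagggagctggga
DUSP1: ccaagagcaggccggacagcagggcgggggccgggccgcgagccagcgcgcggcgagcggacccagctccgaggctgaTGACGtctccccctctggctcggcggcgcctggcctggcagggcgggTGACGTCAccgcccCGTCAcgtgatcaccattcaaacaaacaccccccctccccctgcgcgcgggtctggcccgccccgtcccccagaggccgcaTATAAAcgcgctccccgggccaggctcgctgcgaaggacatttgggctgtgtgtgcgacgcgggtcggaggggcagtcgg
Each motif was searched on both strands, and its share is set beside that over 35116 RefSeq promoters of the same length. The CArG box, the binding element of serum response factor, was found in EGR1 alone of the 9, in a pair that began 105 and 83 bases before the start, and in 1.29% of all promoters. The full cyclic AMP response element, TGACGTCA, stood in JUND, 200 bases before the start, and in DUSP1, 125 bases before it, against 1.85% of all promoters. Its first 5 letters, TGACG, which overlap it, stood in 9 of the 9 promoters and in 24.6% of all. The 9 promoters hold at least 62.0% G and C, and the median promoter 58.7%. The core promoter letters TATAAA stood 30 to 33 bases before the start of FOS, FOSB, JUNB and DUSP1, in 4 of 9 promoters against 11.5% of all. The variant AP-1 site TGACATCA, known from the JUN promoter, was found there 67 bases before the start (2.61% of all promoters). The AP-1 site itself, TGANTCA, was found in FOSL2 from base 5 of the transcript (7.71% of all promoters). The EGR site, GCGNGGGCG, was found in EGR1, 198 bases before the start (9.43% of all promoters). A match gives letters in a window and not a site that was bound. Elements farther upstream, in any of the 9 genes, were not searched.

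The genes spanned a wide range of basal levels. On the log2 RPKM scale, which is per kilobase of exon, the order from high to low in shNT was JUND (5.57), JUNB (4.64), IER2 (4.56), JUN (4.46), DUSP1 (3.70), EGR1 (3.03), FOSL2 (1.16), FOS (0.51) and FOSB (-1.42). The order of the means was the same in all 3 groups. In shNT the values of JUNB and IER2, and of IER2 and JUN, overlapped between libraries. Within each shNT library the order held, though narrowly for JUNB over IER2 in library 2 (4.51 against 4.49). In shCENPA2 the order of IER2 and JUN was not set. IER2 lay above JUN in library 1 (4.69 against 4.48) and below it in library 2 (4.52 against 4.67). The 3 Jun genes and IER2 lay between the 86.4th and the 94.3rd percentile of all genes in the table, and the 3 Fos genes between the 4.53rd and the 30.8th. Summed, the Jun mRNAs came to 94.7 ± 7.90 RPKM in shNT (SD, n = 2) and the Fos mRNAs to 4.03 ± 0.0837 RPKM, so that Jun mRNA was 23.5 ± 1.48 times as abundant as Fos mRNA.

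**Figure D1:**
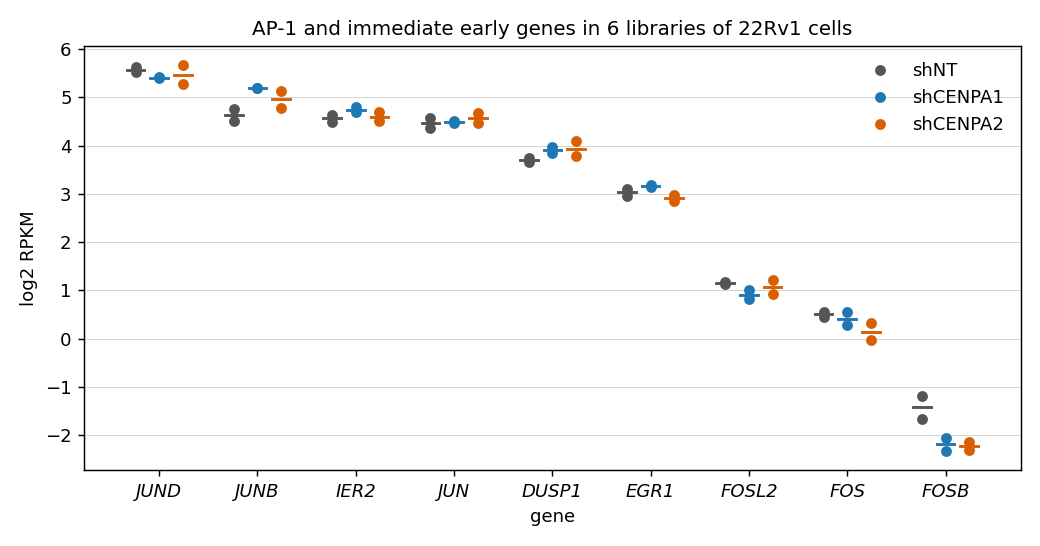
Level of each gene (y axis, log2 RPKM) in the 6 libraries (points), with the mean of each shRNA as a bar, in shNT (grey), shCENPA1 (blue) and shCENPA2 (orange). The order of the means from JUND down to FOSB was the same in all 3 groups, and the shCENPA libraries of JUNB lay above, and those of FOSB below, both shNT libraries.

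Depletion of CENPA with shCENPA1 changed 1 of the 9 genes, JUNB, which was higher. Over all genes tested 2.69% were called higher and 4.45% lower, and 2.65% passed with a change of over 1 log2 unit, up or down, which none of the 9 reached. The median log2 fold change of the 9 genes was 0.03, against 0.00 over all genes, and their median size without sign was 0.18, against 0.17 over all genes. By libraries, both shCENPA1 values lay above both shNT values in 4 genes (JUNB, EGR1, IER2 and DUSP1; 29.9% of all genes) and below them in 3 (FOSB, FOSL2 and JUND; 27.1% of all genes), and overlapped in FOS and JUN. With 9 genes nothing further is read from these counts. With shCENPA2 none of the 9 genes was called, where 8.05% of all genes were called higher, 10.5% lower and 6.13% with a change of over 1 log2 unit. At an unadjusted p under 0.05 the count was 2, with limma on log2 RPKM and with limma voom on the recovered reads, and voom called none. With shCENPA1 this count was 2 as well, in both fits. The share of all genes at an unadjusted p under 0.05 was not counted, so nothing is read from such counts here or below. With shCENPA2 the median log2 fold change of the 9 genes was -0.08, against 0.01 over all genes, and the median size was 0.12, against 0.21. The libraries lay above shNT in 2 genes (JUNB and DUSP1; 31.5% of all genes) and below in 2 (FOS and FOSB; 31.0% of all genes). Both comparisons share the shNT libraries.

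**Figure D2:**
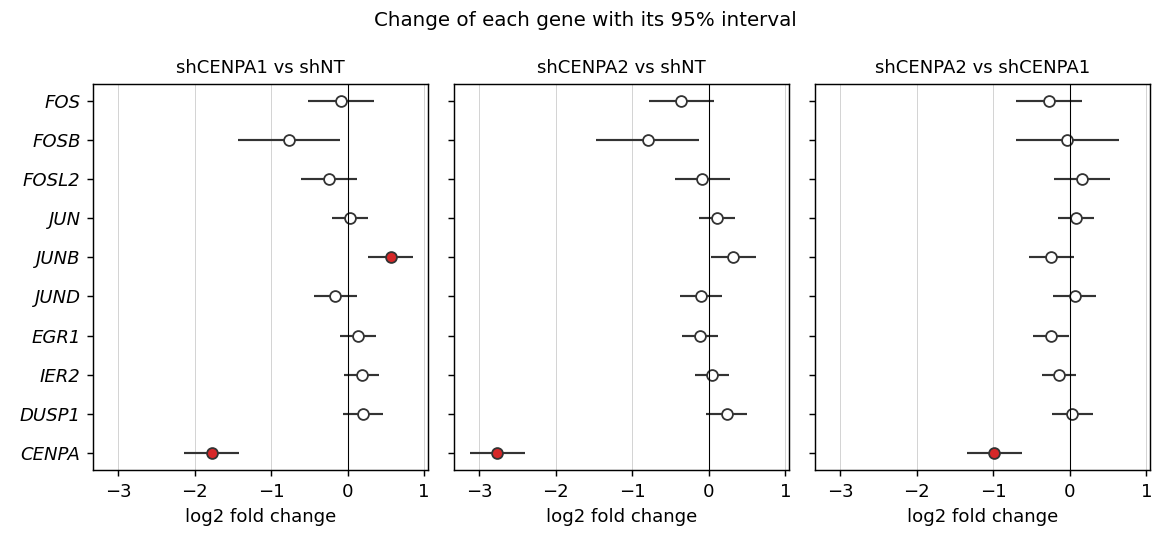
Log2 fold change (x axis) of each gene and of CENPA in the 3 comparisons, with 95% intervals from limma as lines. Red points have an adjusted p under 0.05, which among the AP-1 and immediate early genes held for JUNB with shCENPA1 (0.56) alone.

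Among the Jun genes, JUNB carried the largest difference. JUNB (chr19:12791486-12793315, plus strand, GRCh38) often counteracts JUN in proliferating cells. Its level was 4.77 and 4.51 log2 RPKM in the shNT libraries, 5.20 and 5.20 in shCENPA1, and 5.14 and 4.78 in shCENPA2. Both libraries of each shCENPA lay above both shNT libraries, though shCENPA2 library 2 exceeded shNT library 1 by very little. The rise with shCENPA1 was 1.48-fold (log2 fold change 0.56, 95% interval 0.27 to 0.86, adjusted p = 0.0313, limma). With shCENPA2 the ratio was 1.25-fold (log2 fold change 0.32, interval 0.03 to 0.62, unadjusted p = 0.0343 and adjusted p = 0.121, limma), which did not pass. The difference between both CENPA-targeted shRNAs was -0.24 (interval -0.53 to 0.05, adjusted p = 0.473, limma).
The shCENPA1 call of JUNB did not hold in each fit, and the fits that lost it also called fewer genes over all genes. Its adjusted p was 0.251 without shNT library 2 (log2 fold change 0.44), 0.126 without shCENPA1 library 1 and 0.198 without shCENPA1 library 2 (0.56 in both), and 0.109 in limma without a trend in the variance. Without shCENPA2 library 2, in turn, JUNB passed with shCENPA2 (log2 fold change 0.50, adjusted p = 0.0336, limma). JUNB shares 259 exonic bases with HOOK2 on the opposite strand. The library kit keeps the strand, but the strand setting of the counting is not given in the sources used here. HOOK2 stood at 1.74 log2 RPKM in shNT, below the level of JUNB, and its log2 fold changes were 0.17 and 0.18 (adjusted p = 0.619 and 0.516, limma).

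JUN, the founding Jun protein and a substrate of the JNK kinases, did not pass in any comparison. Its level was 4.56 and 4.36 log2 RPKM in shNT, 4.51 and 4.47 in shCENPA1, and 4.48 and 4.67 in shCENPA2. The libraries of all 3 shRNAs overlapped. The log2 fold change was 0.03 with shCENPA1 (interval -0.21 to 0.27, adjusted p = 0.906, limma) and 0.11 with shCENPA2 (interval -0.13 to 0.35, adjusted p = 0.510, limma). JUND stood at 5.63 and 5.52 log2 RPKM in shNT, 5.42 and 5.40 in shCENPA1, and 5.28 and 5.66 in shCENPA2. Both shCENPA1 libraries lay below shNT, whereas shCENPA2 gave the lowest and the highest value of the 6. The log2 fold changes were -0.16 and -0.10 (adjusted p = 0.487 and 0.625, limma).
Together the 3 Jun mRNAs summed to 101.7 ± 0.914 RPKM in shCENPA1 and 99.97 ± 5.28 RPKM in shCENPA2 (SD, n = 2 each), against 100.2 and 89.1 RPKM in the shNT libraries. The make-up of the sum differed more than its size. JUNB made up 27.2% and 25.6% of Jun mRNA in the shNT libraries, 35.9% and 36.4% in shCENPA1, and 36.6% and 26.6% in shCENPA2. JUND went the other way, with 49.3% and 51.4% in shNT, 41.8% and 41.7% in shCENPA1, and 40.3% and 48.9% in shCENPA2. One shCENPA2 library thus resembled shCENPA1 and the other fell within (JUNB) or close below (JUND) the shNT values. The share of JUN was 21.9% to 24.6% in all 6 libraries.

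**Figure D3:**
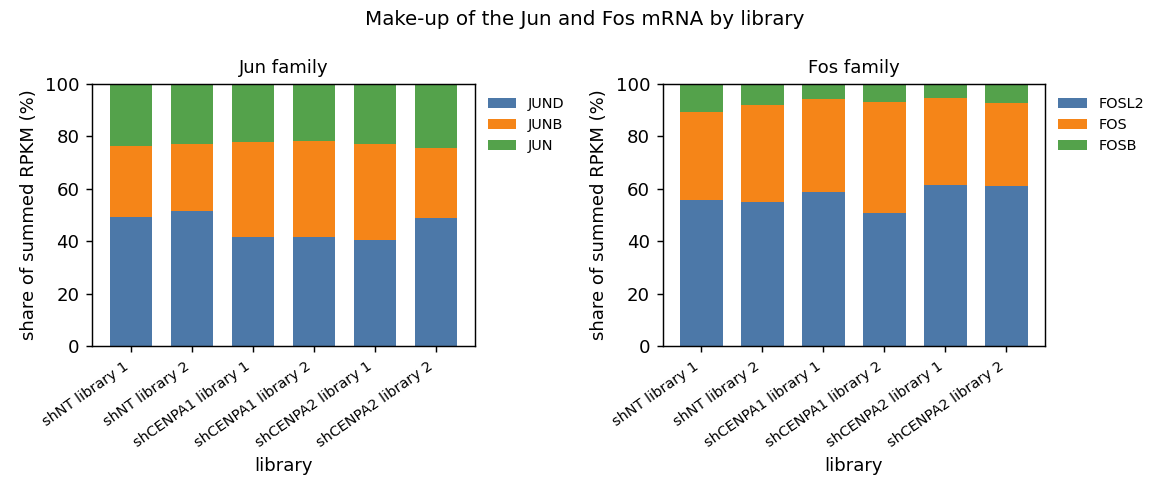
Share of each gene in the summed RPKM of the Jun family (left) and the Fos family (right), in percent (y axis, from 0), for the 6 libraries (x axis). JUNB took 35.9% to 36.6% of Jun mRNA in both shCENPA1 libraries and in shCENPA2 library 1, against 25.6% to 27.2% in the other 3, and FOSL2 was the most abundant Fos mRNA in all 6.

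The Fos genes were low in all groups, and none of them passed the test. The largest differences were those of the lowest gene. FOSB, whose protein is known for its long-lived truncated form in neurons, stood at -1.18 and -1.66 log2 RPKM in shNT, -2.33 and -2.05 in shCENPA1, and -2.30 and -2.14 in shCENPA2, on 89 to 264 reads per library. All 4 shCENPA libraries lay below both shNT libraries, which were themselves 0.47 apart. The log2 fold change was -0.77 with shCENPA1 (interval -1.44 to -0.10, unadjusted p = 0.0290 and adjusted p = 0.168, limma) and -0.80 with shCENPA2 (interval -1.47 to -0.13, unadjusted p = 0.0242 and adjusted p = 0.0954, limma). Neither passed the test over all genes, and in limma without the trend the value with shCENPA2 did (adjusted p = 0.0387). On the strand opposite to FOSB lies ERCC1, which shares 0 exonic bases with it and whose log2 fold changes were 0.38 and 0.47 (adjusted p = 0.0892 and 0.0206, limma).
FOS (chr14:75278826-75282230, plus strand, GRCh38), the prototype of the immediate early genes, stood at 0.46 and 0.55 log2 RPKM in shNT, 0.29 and 0.55 in shCENPA1, and 0.32 and -0.02 in shCENPA2. Both shCENPA2 libraries lay below shNT and the shCENPA1 libraries overlapped with it. The log2 fold change was -0.09 with shCENPA1 (interval -0.52 to 0.34, adjusted p = 0.827, limma) and -0.36 with shCENPA2 (interval -0.79 to 0.07, adjusted p = 0.235, limma). FOSL2, a Fos protein without a strong activation domain, stood at 1.18 and 1.13 log2 RPKM in shNT, 1.01 and 0.81 in shCENPA1, and 1.22 and 0.93 in shCENPA2. Its log2 fold changes were -0.24 and -0.08 (adjusted p = 0.418 and 0.764, limma).
FOSL2 was the main Fos mRNA, with 55.3%, 54.7% and 61.3% of the Fos sum in shNT, shCENPA1 and shCENPA2, and FOS made up 35.3%, 38.9% and 32.4%. FOSB made up 10.8% and 7.995% in the shNT libraries, 5.82% and 6.99% in shCENPA1, and 5.38% and 7.30% in shCENPA2. The Fos sum was 4.03, 3.45 and 3.44 RPKM, and the ratio of Jun to Fos mRNA was 24.5 and 22.5 in the shNT libraries, 29.8 and 29.2 in shCENPA1, and 25.5 and 33.4 in shCENPA2.

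None of the companions of AP-1, EGR1, IER2 and DUSP1, passed the test. EGR1 (chr5:138465479-138469303, plus strand, GRCh38) stood at 3.10 and 2.96 log2 RPKM in shNT, 3.14 and 3.18 in shCENPA1, and 2.97 and 2.86 in shCENPA2. The shCENPA1 libraries lay just above shNT and the shCENPA2 libraries overlapped with it. The log2 fold change was 0.13 with shCENPA1 (interval -0.10 to 0.37, adjusted p = 0.497, limma) and -0.12 with shCENPA2 (interval -0.35 to 0.12, adjusted p = 0.487, limma). Between the CENPA-targeted shRNAs the difference was -0.25 (interval -0.48 to -0.02, unadjusted p = 0.0390 and adjusted p = 0.340, limma), with both shCENPA2 libraries below both shCENPA1 libraries.
IER2 stood at 4.63 and 4.49 log2 RPKM in shNT, 4.69 and 4.80 in shCENPA1, and 4.69 and 4.52 in shCENPA2. Its log2 fold changes were 0.18 and 0.04 (adjusted p = 0.330 and 0.819, limma). Antisense lncRNAs with no row in the table share up to 946 exonic bases with IER2. DUSP1 stood at 3.75 and 3.66 log2 RPKM in shNT, 3.84 and 3.97 in shCENPA1, and 4.09 and 3.78 in shCENPA2. All 4 shCENPA libraries lay above both shNT libraries, by little in the case of shCENPA2 library 2. The log2 fold changes of DUSP1 were 0.20 with shCENPA1 (interval -0.07 to 0.47, adjusted p = 0.361, limma) and 0.23 with shCENPA2 (interval -0.03 to 0.50, unadjusted p = 0.0779 and adjusted p = 0.209, limma).

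Between both CENPA-targeted shRNAs none of the 9 genes was called by limma, where 0.390% of all genes were called higher with shCENPA2, 1.03% lower and 0.732% with a change of over 1 log2 unit. At an unadjusted p under 0.05 the count was 1 (EGR1), and 0 with limma voom, which also called none. The shCENPA2 libraries lay above shCENPA1 in 0 genes (17.9% of all genes) and below in 2, JUNB and EGR1 (20.2% of all genes). All 9 intervals lay within 1 log2 unit of 0 in either direction, and 5 within 0.5.
The spread between libraries had a median SD of 0.145 log2 units over the 9 genes (0.0755 to 0.233), against 0.128 over all genes tested, while counting error came to an SD of 0.016 to 0.12, the highest being that of FOSB, whose spread between libraries was 0.233. In both comparisons with shNT, 8 of the 9 intervals lay within 1 log2 unit of 0 and that of FOSB did not. Over the 9 genes the libraries of shCENPA2 lay farthest apart, with a median gap of 0.293 log2 units, against 0.145 in shNT and 0.115 in shCENPA1. They held the widest gap of the 3 groups in 6 of the 9 genes. Over all genes with enough reads, the libraries of shCENPA1 differed most by chi-square per gene (80.8, against 55.3 in shCENPA2 and 26.6 in shNT). FOS, FOSL2, JUNB, DUSP1, EGR1 and IER2 were lower in shCENPA2 library 2 than in library 1, and FOSB, JUN and JUND higher.

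The wider immediate early response was read from a list of 40 other genes, of which 36 were tested. With shCENPA1, 1 rose (2.8% of those tested, against 2.69% of all genes) and 3 fell (8.3% against 4.45%). With shCENPA2, 3 rose (8.3% against 8.05%) and 13 fell (36.1% against 10.5%). The shares that rose were thus near those over all genes. The list's median change stood at -0.09 log2 units for shCENPA1 and -0.24 for shCENPA2, against 0.00 and 0.01 over all genes, and 26 of the 36 values with shCENPA2 were negative. The count of 13 was lower without either shNT library, and lowest of all fits without shNT library 1. The number called over all genes, in both directions together, was also lower in these 2 fits. Without shNT library 1, however, the list's count fell by the larger factor, so the share of 36.1% leaned on that library. With each of the 12 runs as a replicate the count was 21, where 7089 of 14624 genes were called, against 2712 in the main fit. SOCS3, which inhibits cytokine signalling through JAK kinases, stood at -2.53 and -2.42 log2 RPKM in shNT, -1.40 and -1.05 in shCENPA1, and -0.77 and -1.32 in shCENPA2. It rose with both shRNAs (log2 fold changes 1.25 and 1.43, adjusted p = 0.0318 and 0.00834, limma). Its levels rest on 43 to 147 reads per library, and over the alternatives its changes were as low as 0.28 and 0.34. KLF4 (0.36) and PLK2 (0.54), the others that rose with shCENPA2, were named after their values were seen.
ID2, an inhibitor of basic helix-loop-helix factors, was the most abundant gene of those that fell. Its level was 6.98 and 6.92 log2 RPKM in shNT, 6.26 and 6.41 in shCENPA1, and 6.01 and 5.69 in shCENPA2, in 3 groups that did not overlap. The log2 fold changes were -0.62 and -1.11 (adjusted p = 0.0134 and 0.000245, limma). KLF6, a zinc finger factor, fell by 0.63 and 0.67 on the log2 scale (adjusted p = 0.0366 and 0.0136, limma), and TRIB1 was the other gene lower with shCENPA1 (log2 fold change -0.35), named after its values were seen. CTGF (CCN2), a matricellular protein and target of YAP and serum response factor, stood at 2.03 and 1.82 log2 RPKM in shNT, 1.66 and 1.66 in shCENPA1, and 0.47 and 0.02 in shCENPA2. It fell with shCENPA2 by 1.68 on the log2 scale (adjusted p = 0.000221, limma), not with shCENPA1 (-0.27, adjusted p = 0.418, limma), and differed between the shRNAs (-1.41, adjusted p = 0.00571, limma). ZFP36L2, an RNA-binding protein that promotes decay of AU-rich mRNAs, likewise fell with shCENPA2 (-0.96, adjusted p = 0.000355, limma) and differed between the shRNAs (-0.71, adjusted p = 0.0144, limma). EGR3, a relative of EGR1 named after its values were seen, stood at 1.03 and 0.78 log2 RPKM in shNT, 0.57 and 0.35 in shCENPA1, and -0.08 and 0.15 in shCENPA2, and fell with shCENPA2 by 0.87 on the log2 scale (adjusted p = 0.00960, limma).

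**Figure D4:**
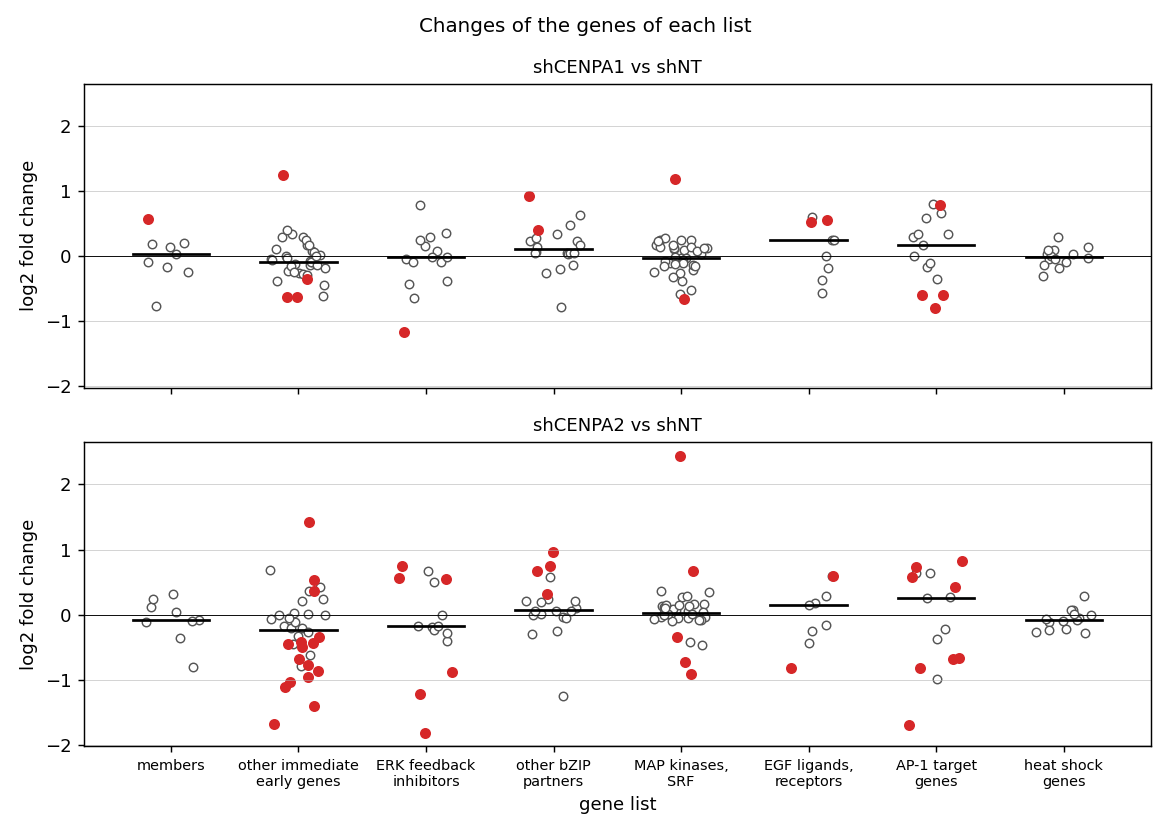
Log2 fold change (y axis) of the tested genes of each list (x axis) with shCENPA1 (top) and shCENPA2 (bottom) against shNT, with the list median as a bar and genes with an adjusted p under 0.05 in red. With shCENPA2, 13 of 36 other immediate early genes were called lower and 3 higher, while the heat shock genes had none called.

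The pathway above AP-1 was read from lists in the same way. Of 36 tested MAP kinase and serum response factor genes, 1 rose and 1 fell with shCENPA1, and 2 rose and 3 fell with shCENPA2, where 2.69% and 4.45% of all genes were called with shCENPA1 and 8.05% and 10.5% with shCENPA2. Among those that fell were the p38 activator MAP2K6 (log2 fold change -0.91) and the p38 kinase MAPK13 (-0.34). Genes given in this way with a change alone were named after their values were seen. RPS6KA2, a ribosomal S6 kinase that ERK activates, stood at -1.35 and -1.48 log2 RPKM in shNT, -0.14 and -0.31 in shCENPA1, and 1.23 and 0.81 in shCENPA2. It rose with both (log2 fold changes 1.19 and 2.44, adjusted p = 0.00952 and 7.83e-05, limma) and by more with shCENPA2 (difference 1.24, adjusted p = 0.0259, limma). MAP3K5, the stress kinase ASK1 upstream of JNK and p38, fell by 0.66 and 0.73 on the log2 scale (adjusted p = 0.00559 and 0.00141, limma). MAP2K1, the kinase MEK1 that activates ERK, rose with shCENPA2 (0.68, adjusted p = 0.000939, limma) and differed between the shRNAs (0.51, adjusted p = 0.0308, limma). Of 9 tested EGF family ligands and receptors, 2 rose with shCENPA1 (TGFA and AREG, the latter by 0.53), and 1 rose and 1, the receptor ERBB4, fell (-0.82) with shCENPA2. Over all genes 2.69% were called higher with shCENPA1, and 8.05% higher and 10.5% lower with shCENPA2. The count of 2 ranged from 0 to 4 over the alternatives. The ligand TGFA rose with both (log2 fold changes 0.56 and 0.59, adjusted p = 0.0321 and 0.0125, limma).
Of 15 feedback inhibitors of the DUSP, Sprouty and SPRED families, 1 fell with shCENPA1, and 3 rose (DUSP4 by 0.56, DUSP6 by 0.55 and SPRED3 by 0.75) and 3 fell (DUSP2, DUSP9 by 1.22 and SPRY4 by 0.88) with shCENPA2, against 4.45% of all genes lower with shCENPA1 and 8.05% higher and 10.5% lower with shCENPA2. DUSP2, a nuclear MAP kinase phosphatase like DUSP1, stood at 2.76 and 2.67 log2 RPKM in shNT, 1.48 and 1.63 in shCENPA1, and 1.23 and 0.59 in shCENPA2, in 3 groups that did not overlap. It fell with both shRNAs (log2 fold changes -1.17 and -1.81, adjusted p = 0.00674 and 0.000257, limma), while DUSP1 did not pass in either. Of 20 other bZIP genes, 2 rose with shCENPA1 (NFE2L1, and JDP2 by 0.92) and 4 with shCENPA2 (NFE2L1, ATF6 by 0.32, BACH2 by 0.97 and CREM by 0.74), against 2.69% and 8.05% of all genes. None fell in limma on log2 RPKM or in voom, with 0 and 2 lower at an unadjusted p under 0.05. MAFF stands in this list and among the immediate early genes. The stress factor NFE2L1 rose with both (log2 fold changes 0.40 and 0.68, adjusted p = 0.0272 and 0.000902, limma).

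Genes described as AP-1 targets were called in both directions. Of 34 listed, 15 were tested, and none of the matrix metalloproteinases listed had a row in the table. With shCENPA1, 1 rose and 3 fell, and with shCENPA2, 4 rose and 4 fell, against 2.69% and 4.45% of all genes with shCENPA1 and 8.05% and 10.5% with shCENPA2. Beside the genes below these were CCND1 (-0.60 and -0.67) and, with shCENPA2, ITGB4 (0.83), TGFB1 (0.43), VEGFA (0.57) and VIM (-0.82). CD44, a hyaluronan receptor, stood at 2.49 and 2.42 log2 RPKM in shNT, 1.64 and 1.69 in shCENPA1, and 0.76 and 0.75 in shCENPA2, in 3 groups that did not overlap. It fell with both shRNAs (log2 fold changes -0.79 and -1.70, adjusted p = 0.00488 and 3.13e-05, limma) and by more with shCENPA2 (difference -0.91, adjusted p = 0.00857, limma). The integrin ITGA2 fell by 0.60 and 0.68 on the log2 scale (adjusted p = 0.0368 and 0.0102, limma), and the heme oxygenase HMOX1 rose by 0.78 and 0.73 (adjusted p = 0.0184 and 0.0117, limma).
Of the 12 list genes outside the luminal markers that the naming rule of the methods picked as changed with shCENPA1, each lost the call in at least 1 of the 6 fits that left out a library, CD44 without shNT library 1 and the other 11 without shCENPA1 library 2. Of the 16 changed with shCENPA2, 12 kept it, and KLF6, TGFA, HMOX1 and ITGA2 lost it without shNT library 1. Each of the 6 list genes called between the shRNAs lost the call without shCENPA1 library 2. These fits leave 1 library in a group, and each called fewer genes over all genes too. The losses are therefore not read as particular to the list genes.
Of 18 listed heat shock genes, read for the stress of handling, 14 were tested, and HSPA1A, HSPA1B, HSPA1L and HSPA6 had no row. None of the 14 was called in any comparison by limma on log2 RPKM or by voom. At an unadjusted p under 0.05 the counts were 1 with shCENPA1, 3 with shCENPA2 and 0 between the shRNAs, and their summed level was 2042 to 2249 RPKM per library. Among the luminal markers, the homeobox factor HOXB13 rose with shCENPA2 (log2 fold change 0.47, adjusted p = 0.0164, limma), and the kallikreins KLK2 and KLK3 fell with it (-1.05 and -1.64, adjusted p = 0.0103 and 0.00160, limma), as did FOXA1 (-0.31, adjusted p = 0.0448, limma). Of the 3 markers of other cells, DCN (decorin) rose with both (1.94 and 1.48, adjusted p = 0.00271 and 0.00530, limma), and LUM (lumican) rose with shCENPA2 (0.74, adjusted p = 0.00386, limma) and not with shCENPA1 (-0.41, adjusted p = 0.0967, limma). Whether these changes had a part in those of the immediate early genes was not tested.

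Of the 12050 genes averaging at least 0 log2 RPKM, those that were members were set aside. The genes most like a member over the 6 libraries were then found by the root-mean-square distance of centred log2 values. For FOS they were KYAT1 (0.033), SNHG20 (0.041) and NCAPH2 (0.047), where FOS itself varied by 0.198. For JUN they were METTL2A (0.033), EIF4E3 (0.036) and UBE2R2 (0.039), where JUN varied by 0.094. For EGR1 they were RPP38 (0.029), FMNL1 (0.031) and CLDN3 (0.033), where EGR1 varied by 0.115. None of these genes is in the immediate early list above. That list is a small part of the genes compared, so nothing is read from its absence here.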

How the data were processed

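The mRNA of 22Rv1 cells was measured with a stranded kit in 12 runs, 2 lanes of each of 6 libraries, 2 libraries per shRNA. Per the labels and the study's methods, the authors trimmed reads with Trim Galore, aligned them to hg38 with STAR, counted them on genes with HTSeq and used edgeR (versions not given in the sources used here). The deposited values are log2 RPKM per run, with a prior count of 0.25 and no gene under about 1 CPM in its 3 highest runs, so that fold changes of low genes are drawn towards 0. No column was left unused. Runs were tied to libraries and shRNAs by the labels. The deposited log2 values let whole reads be worked back for 14828 of 14828 genes (each within 8e-08 of a whole read), and these gave the depth. Lanes differed little beyond sampling noise (chi-square per gene 1.22 to 1.30, where noise alone gives about 1) and libraries much more (26.6 to 80.8), so lanes were averaged and n = 2.

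Genes averaging -3 log2 RPKM or more entered a fit by limma 3.58.1 (R 4.3.3), with a trend in the variance, all 3 groups in one fit, no covariate and no further constant. Intervals are 95%. The fit was tested on simulated data. The authors called genes with edgeR; as the unit is log2 RPKM, limma was used here. Members and gene lists were chosen with earlier results of these data known, and the lists were written from general knowledge. Besides all members and CENPA, genes were named that passed with both shRNAs in the same direction (up to 3 per list, by the smaller change) or between the shRNAs (up to 2 per list), and the 3 nearest profiles of FOS, JUN and EGR1. Some of the genes picked are not reported here. Others are marked as named after their values were seen. Alternatives were single lanes, runs as replicates, a replicate block, no or a stricter filter, 0.1 or 1 added to RPKM, median-centred or quantile-normalized libraries, no trend, only the groups compared, voom on recovered reads with library totals, and each library left out. Gene positions are from GENCODE 44 on GRCh38, the assembly of hg38.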

Additional observations from a re-analysis of the deposited data

Results flagged for a closer look

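No group held the 4 libraries that a check for outlying libraries needs. Of the genes described above, 7 differed between both CENPA-targeted shRNAs in a direct test (limma, adjusted p under 0.05). None of them is an AP-1 gene or another member. Relative to shCENPA1, the log2 difference with shCENPA2 was -0.98 for CENPA itself, -1.41 for CTGF, -0.71 for ZFP36L2 and -0.91 for CD44. It was 1.24 for RPS6KA2, 0.51 for MAP2K1 and 1.15 for LUM. Each of these calls was lost without shCENPA1 library 2, a fit that also called fewer genes over all genes.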

How the results depend on the processing

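Of 510 values of the 9 genes in 3 comparisons under 19 alternatives, 482 kept their direction and their side of the threshold, 4 lost the call (JUNB with shCENPA1), 10 gained one and 14 changed sign, from 9 results of which none was called. With each run as a replicate, which takes lanes for libraries, the number of genes changed rose from 1 to 4 with shCENPA1, from 0 to 4 with shCENPA2 and from 0 to 1 between the shRNAs. Over all 14624 genes tested, the calls rose likewise, from 1044 to 5405, from 2712 to 7089 and from 208 to 3319. Without the trend, the number of the 9 genes changed was 0 with shCENPA1 and 1 with shCENPA2 (843 and 2334 over all genes). With a library left out it was 0 to 1 in both. JUNB with shCENPA1 ranged from 0.44 to 0.69 over the alternatives, with adjusted p from 0.000448 to 0.251 (limma). FOSB was not tested under the filter at a mean log2 RPKM of 0, and 1 added to RPKM drew its changes to -0.17 and -0.18.

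The replicate block gave 1, 0 and 0 genes changed, as did the fit without it. Deviations of same-numbered libraries correlated at -0.064, -0.095 and -0.145 between the groups, so no shift shared by same-numbered libraries was seen. Whether such libraries were prepared together is not given in the labels.

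Signs changed on leaving out a library for small changes only. On the log2 scale, the range with shCENPA1 was -0.217 to 0.040 for FOS and -0.073 to 0.129 for JUN, and with shCENPA2 -0.230 to 0.062 for FOSL2, -0.292 to 0.093 for JUND and -0.043 to 0.125 for IER2. Between the shRNAs it was -0.170 to 0.106 for FOSB, -0.015 to 0.180 for JUN, -0.130 to 0.255 for JUND and -0.120 to 0.185 for DUSP1. For FOSB between the shRNAs the sign also changed in lane 7 alone (0.005) and in quantile-normalized libraries (0.092). The cause was not tested. The 1 and 3 other immediate early genes higher and lower with shCENPA1 ranged from 0 to 6 and from 0 to 10. Counts of changed genes over the other lists, 0 to 5 against shNT, ranged from 0 to 10 over the alternatives. With 2 libraries per shRNA, a single library that decides a call cannot be told from the spread between libraries.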
